A study of Mus musculus with 21 samples.

Results

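Cd177, Ceacam10, Ces1d, Sult6b2 and Cyp2b10 were the genes described here, in Paneth cells sorted from mouse small intestine. They were selected on their counts in specific pathogen free (SPF) mice, where they differed between zinc water and Milli-Q (purified) water, and because they lie outside metal handling. They were 5 of 55414 genes in the count table and 5 of the 18 genes that passed the test in SPF mice, and all 5 were among the 13070 genes kept by the filter on low counts. The data comprised 21 bulk RNA-seq libraries in 6 groups. The labels give zinc water as 200 mM ZnSO4, and each water was given for 7 weeks. In the SPF context there were 3 libraries on Milli-Q and 3 on zinc water. In the antibiotics context, mice of SPF housing were given broad spectrum antibiotics while the final 3 weeks of either water ran, with 4 libraries on each. In the germ-free context there were 3 libraries on Milli-Q and 4 on zinc water. The study describes C57BL/6J mice, and the labels give neither age nor sex. The question was whether the difference seen in SPF mice was also present after antibiotics and in germ-free mice.

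Paneth cells sit at the base of the small intestinal crypts and release antimicrobial peptides and lysozyme from granules that are rich in zinc. Zinc entering a cell activates the transcription factor MTF1, which binds metal response elements and switches on the metallothioneins. The genes described here belong to none of these known routes. Cd177 encodes a surface glycoprotein of the Ly6 and uPAR family that is held in the membrane by a lipid anchor and is best known from neutrophils. Ceacam10 encodes a short mouse member of the carcinoembryonic antigen-related cell adhesion family. The other three are enzymes of foreign compound and lipid metabolism. Ces1d is a carboxylesterase that cleaves esters of lipids and drugs, Cyp2b10 is a cytochrome P450 that oxidises foreign compounds and is the classic target of the nuclear receptor CAR (Nr1i3), and Sult6b2 belongs by sequence to the cytosolic sulfotransferases, which attach sulfate groups to small molecules.

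In GRCm39, Cd177 (ENSMUSG00000052212, 17 exons) lies on chromosome 7 from 24443408 to 24459747 on the minus strand. Ceacam10 (ENSMUSG00000054169, 4 exons) follows on the plus strand from 24476598 to 24484082, so the start sites of the pair face away from each other and are 16851 bases apart. Cyp2b10 (ENSMUSG00000030483, 9 exons) is on the same chromosome from 25597045 to 25626049 on the plus strand. Ces1d (ENSMUSG00000056973, 14 exons) lies on chromosome 8 from 93892693 to 93924466, and Sult6b2 (ENSMUSG00000048473, 6 exons) on chromosome 6 from 142730930 to 142750228, both on the minus strand. The 250 bases before the start of the annotated canonical transcript of 3 of the genes are shown 5′ to 3′ on the strand of the gene. They are shown because Cd177 and Ceacam10 are a divergent pair whose counts moved together and the Ces1d window held letters matching the core of the metal response element. The metallothionein Mt1, known to respond to zinc, is shown for comparison.
Cd177, chr7:24459748-24459997, minus strand: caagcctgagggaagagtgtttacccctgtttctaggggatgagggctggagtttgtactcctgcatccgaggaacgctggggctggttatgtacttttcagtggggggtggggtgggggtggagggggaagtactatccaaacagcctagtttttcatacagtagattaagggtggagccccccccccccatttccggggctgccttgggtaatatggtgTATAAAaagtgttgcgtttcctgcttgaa
Ceacam10, chr7:24476348-24476597, plus strand: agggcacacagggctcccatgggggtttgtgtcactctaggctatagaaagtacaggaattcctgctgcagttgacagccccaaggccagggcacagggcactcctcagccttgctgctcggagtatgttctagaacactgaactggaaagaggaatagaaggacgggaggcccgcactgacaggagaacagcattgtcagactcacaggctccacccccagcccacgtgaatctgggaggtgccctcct
Ces1d, chr8:93924467-93924716, minus strand: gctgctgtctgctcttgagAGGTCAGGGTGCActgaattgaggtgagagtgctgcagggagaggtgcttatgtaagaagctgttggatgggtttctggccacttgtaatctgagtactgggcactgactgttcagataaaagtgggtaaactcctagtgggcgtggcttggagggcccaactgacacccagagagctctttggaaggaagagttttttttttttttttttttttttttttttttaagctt
Mt1, chr8:94905460-94905709, plus strand: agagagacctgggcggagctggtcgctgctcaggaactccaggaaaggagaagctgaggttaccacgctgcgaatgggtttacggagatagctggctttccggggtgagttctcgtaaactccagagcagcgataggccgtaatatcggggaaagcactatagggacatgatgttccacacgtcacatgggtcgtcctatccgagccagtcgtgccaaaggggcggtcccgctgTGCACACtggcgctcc
Capitals mark letters that matched 1 of 3 motifs. These were the core of the metal response element, TGCACNC or TGCGCNC on either strand, the AGGTCA letters that nuclear receptors bind on either strand, and the TATA box letters TATAAA on the strand of the gene. The Cd177 window held TATAAA from 29 to 24 bases before the start. The Ces1d window held AGGTCA from 231 to 226 bases before the start and, directly after it, a metal response core on the opposite strand from 225 to 219. The Mt1 window held a metal response core from 16 to 10 bases before the start of its annotated canonical transcript. Bases past that start and other starts of Mt1 were not read, so the window need not hold all its metal response elements. The windows of Ceacam10, Sult6b2 and Cyp2b10 held none of these letters. Among 11972 windows of the same length before the starts of genes, 26.7% held a metal response core, 11.5% AGGTCA and 4.49% TATAAA, so a match is common and is given only as a description of the letters.

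Library totals ranged from 9888174 to 16896714 counts with a median of 12936001. The levels below are CPM values, that is counts relative to library size, scaled by the TMM factors of edgeR, which correct for the large share of counts taken by a few genes. All 13 Paneth cell markers were detected in every group and took 29.0 to 52.0% of the counts of a library. Mt1 and Mt2 were higher in every zinc library than in every Milli-Q library of the same context, from 30.7 to 129 CPM on Milli-Q and from 379 to 1096 CPM on zinc water for Mt1. SPF zinc replicate 1 stood apart with 6228 counts of Xist, the RNA of the inactive X chromosome of females, against at most 14 in any library of the antibiotics or germ-free groups and at most 10 on SPF Milli-Q water. Values without that library are given where they moved. Of 20 neutrophil markers, S100a8, Ly6g, Cxcr2, Mpo, Elane and Camp had 0 counts in all 21 libraries, and the summed list ranged from 0.13 to 2.16 CPM, mostly Itgam. Of 16 enterocyte markers, all of them detected, the sum ranged from 608 to 923 CPM in SPF and antibiotics libraries on Milli-Q water and from 1320 to 2307 CPM in SPF zinc libraries. In bulk samples, fewer cells of a type and less RNA per cell cannot be told apart.

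**Figure D1:**
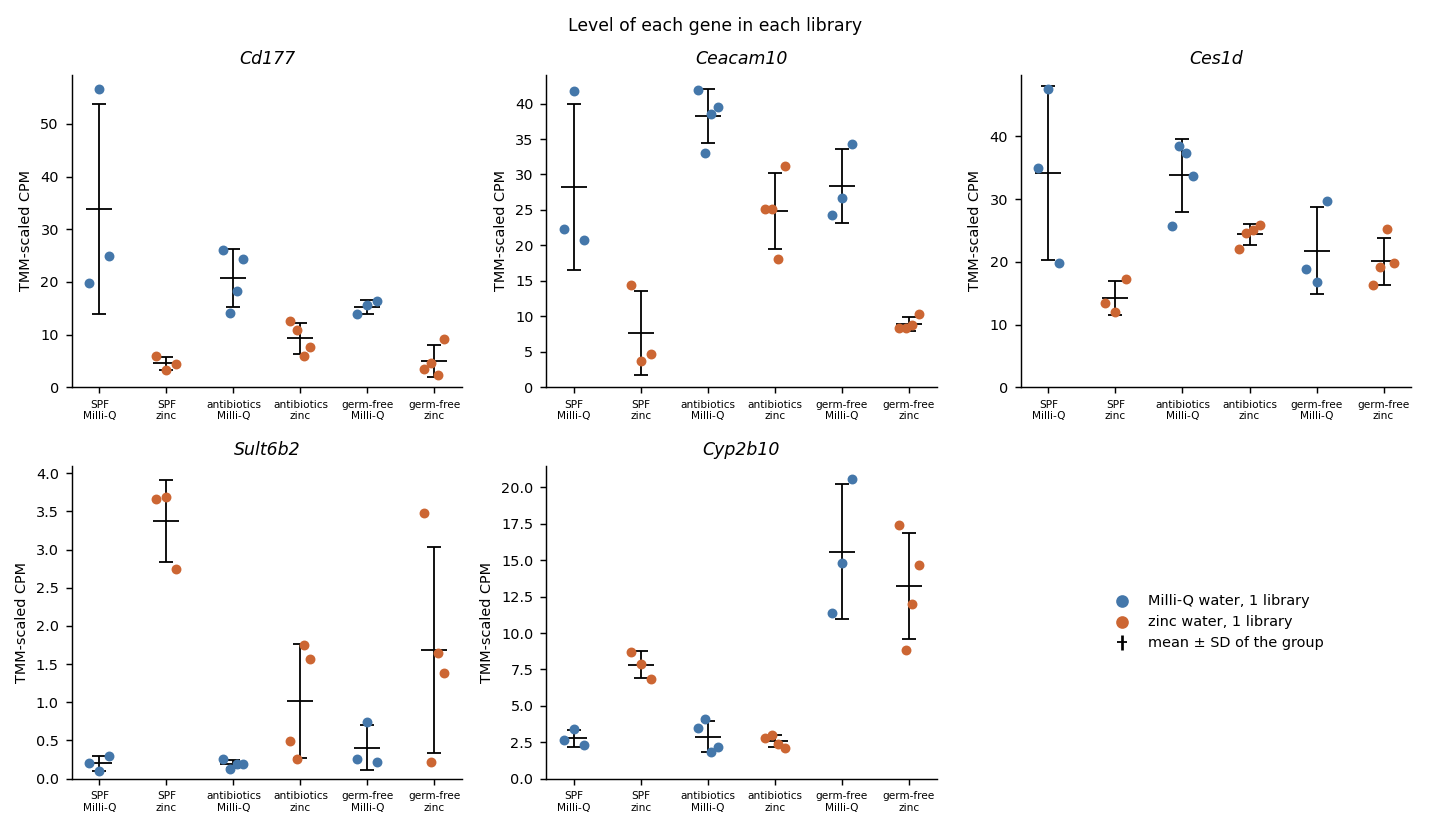
Level of each gene (TMM-scaled CPM, linear axis from 0) in each of the 21 libraries by group, with a point for each library and a bar for the mean ± SD of the group. Cd177 and Ceacam10 were lower in the zinc libraries of each context with no overlap, and Cyp2b10 was highest in the germ-free libraries on both waters. The SPF libraries chose the genes.

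The SPF values chose the genes and are given as a description, with no test. Across all genes, 0.138% of those tested passed in SPF mice at a threshold of 0.05 on the Benjamini-Hochberg adjusted p (edgeR, quasi-likelihood). Cd177 stood at 19.8, 56.6 and 24.9 CPM in the SPF Milli-Q libraries and at 5.87, 3.34 and 4.46 CPM on zinc water. Ceacam10 stood at 22.3, 41.7 and 20.7 CPM on Milli-Q and at 14.4, 3.70 and 4.69 CPM on zinc water. Cd177 and Ceacam10 were thus both lower in each zinc library, and SPF Milli-Q replicate 2 was the highest library for each. Ces1d stood at 35.0, 47.6 and 19.9 CPM on Milli-Q and at 13.4, 12.0 and 17.3 CPM on zinc water. The enzymes Sult6b2 and Cyp2b10 went the other way. Sult6b2 had 3, 2 and 6 counts on Milli-Q and 45, 52 and 37 counts on zinc water, which is 0.199 ± 0.094 and 3.37 ± 0.54 CPM (SD, n = 3 each). Cyp2b10 stood at 2.66, 3.42 and 2.27 CPM on Milli-Q and at 8.72, 7.89 and 6.84 CPM on zinc water. The groups did not overlap for any of the 5 genes, which were chosen on these values. The share of all genes without overlap was not computed in SPF mice. The log2 fold changes with their SE were -2.90 ± 0.40 for Cd177, -1.91 ± 0.34 for Ceacam10, -1.26 ± 0.25 for Ces1d, 4.02 ± 0.73 for Sult6b2 and 1.49 ± 0.29 for Cyp2b10. Without SPF zinc replicate 1 the value for Ceacam10 was -2.75. Without SPF Milli-Q replicate 2 the values for Cd177, Ceacam10 and Ces1d were -2.30, -1.52 and -0.94. The genes ranked just inside the threshold were Apob and Fcgbp (log2 fold changes 1.34 and -1.20), and those just outside it were St6galnac6 and Cyba (-4.58 and -0.98).

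Cd177 fell on zinc water both after antibiotics and in germ-free mice. After antibiotics it stood at 26.0, 14.1, 18.2 and 24.3 CPM on Milli-Q and at 12.6, 10.8, 5.99 and 7.63 CPM on zinc water. In germ-free mice it stood at 13.9, 15.7 and 16.4 CPM on Milli-Q and at 3.48, 4.59, 2.36 and 9.24 CPM on zinc water. In neither context did the waters overlap. The fall was 2.22-fold after antibiotics (log2 fold change -1.15 ± 0.32 SE, adjusted p 0.0143 by edgeR) and 3.03-fold in germ-free mice (-1.60 ± 0.39, adjusted p 0.0152). The mean of the 2 contexts was -1.38 ± 0.25 (SE), with an adjusted p of 0.000677 by edgeR. The fall after antibiotics was called in each fit that left out a library (highest adjusted p 0.0450). In germ-free mice the call was lost without germ-free Milli-Q replicate 2 (adjusted p 0.101), without germ-free zinc replicate 3 (0.0633) and in a fit restricted to germ-free libraries (0.118). Of the annotated stretches of 60 bases in Cd177, 95.1% occur in no other gene, and the rest is shared with Lypd10, Lypd11 and Gm1096, of which Lypd10 and Lypd11 had 0 and 1 count in all.

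Of 29 genes of the Ly6 and uPAR family, 7 other than Cd177 passed the filter, and averaged over antibiotics and germ-free mice 0 rose and 1 fell on zinc water, below the 29.8% of all genes called there. That gene was Ly6e, which encodes a membrane-anchored protein that restricts some viruses, at -0.56 ± 0.11 log2 units (SE, adjusted p 0.0014 by edgeR). Lypd8, a secreted protein that keeps flagellated bacteria from the colon wall and the family member with the highest mean CPM, stood at -0.11 ± 0.13 (adjusted p 0.543). The median of the 7 genes was -0.11, against -0.009 over all genes tested.

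Ceacam10, the divergent neighbour of Cd177, fell in germ-free mice. It stood at 24.3, 26.6 and 34.3 CPM on Milli-Q and at 8.32, 8.30, 8.84 and 10.3 CPM on zinc water there, so the zinc libraries lay close together and far below the others. The fall was 3.17-fold (log2 fold change -1.66 ± 0.32 SE, adjusted p 0.00924 by edgeR). After antibiotics Ceacam10 stood at 42.0, 33.0, 38.6 and 39.6 CPM on Milli-Q and at 25.1, 25.1, 18.0 and 31.2 CPM on zinc water. These groups did not overlap either, but the log2 fold change of -0.62 ± 0.27 (SE) missed the threshold, with an adjusted p of 0.0948 by edgeR. That adjusted p was 0.0250 without SPF zinc replicate 1, 0.00447 in a fit of the antibiotics libraries alone, 0.0013 with no filter on low counts and 0.0152 by limma-voom. Averaged over both contexts the change was -1.14 ± 0.21 (SE, adjusted p 0.000677 by edgeR). The germ-free call was lost without germ-free Milli-Q replicate 2 (adjusted p 0.0677).

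The other genes of the adhesion family are given beside it. Of 16 Ceacam genes, 4 others passed the filter, and averaged over antibiotics and germ-free mice 1 rose and 0 fell, near the 29.8% of all genes called there, with a median of 0.58. Ceacam18 rose by 1.40 ± 0.45 log2 units (SE, adjusted p 0.0222 by edgeR). Ceacam1, an adhesion receptor of epithelial cells and the member with the highest mean CPM, stood at 0.41 ± 0.16 (SE, adjusted p 0.0602), and its germ-free value of 0.78 ± 0.24 passed (adjusted p 0.0423). Ceacam1 is also the gene that shares the 2.3% of Ceacam10 stretches of 60 bases not found in Ceacam10 alone.

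**Figure D2:**
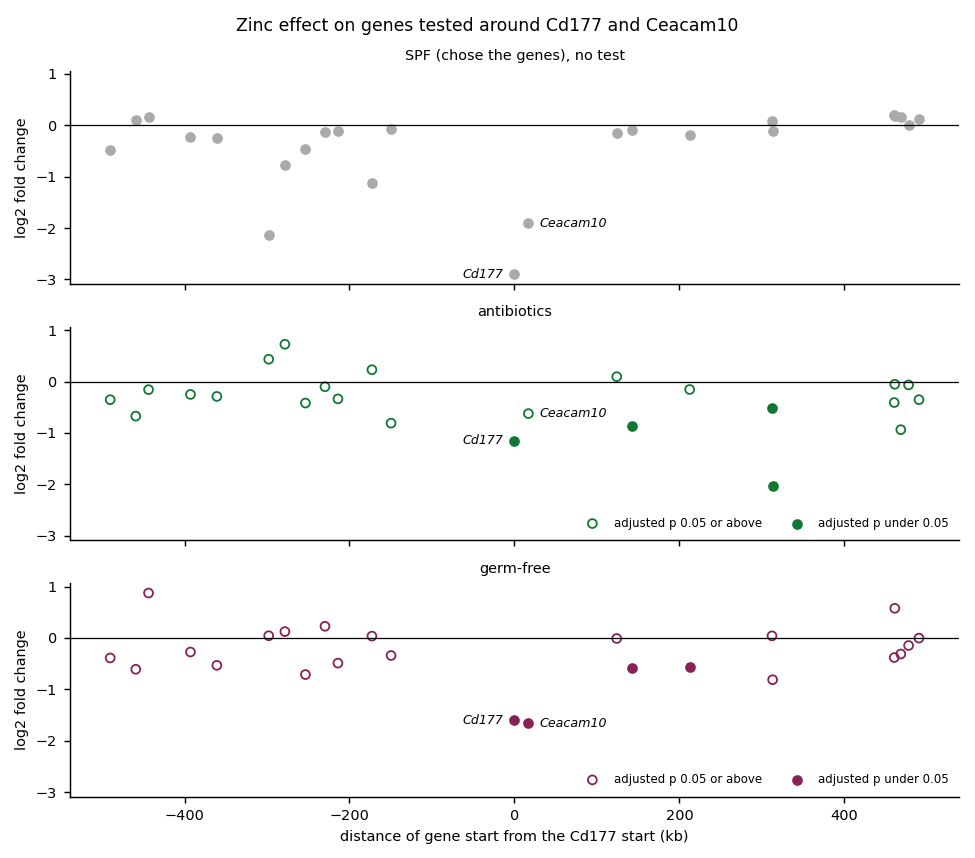
Log2 fold change (zinc over Milli-Q water) of the 24 genes tested within 500 kb of the Cd177 start, plotted by the distance of each gene's start in kb, in SPF (no test), antibiotics and germ-free mice. Filled points in the lower panels passed an adjusted p of 0.05, which Cd177 did in both and Ceacam10 in germ-free mice.

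Around the pair, 24 tested genes started within 500 kb of the Cd177 start, Cd177 and Ceacam10 among them. Lower counts on zinc water were called for 4 of them after antibiotics (Cd177, Arhgef1, Zfp574 and Grik5) and for 4 in germ-free mice (Cd177, Ceacam10, Arhgef1 and Rabac1), and higher counts for 0 in either context. Of all genes tested 21.7 and 11.3% were called in these contexts. The 4 of 24 lay below the share after antibiotics and above that in germ-free mice. They include Cd177 in both contexts and Ceacam10 in germ-free mice, which the rule chose and which the window was drawn around. The counts are therefore only a description. Apart from the pair, these names were taken after their values were seen. The nearest tested gene on the other side of Cd177, Phldb3, stood at -0.81 ± 0.30 after antibiotics (adjusted p 0.0525) and -0.34 ± 0.34 in germ-free mice (adjusted p 0.528). The nearest beyond Ceacam10, the ribosomal protein gene Rps19, stood at 0.10 ± 0.17 and -0.01 ± 0.18 (SE, adjusted p 0.713 and 0.978 by edgeR).

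Ces1d showed no fall past the threshold outside SPF mice. After antibiotics it stood at 25.7, 38.5, 37.3 and 33.6 CPM on Milli-Q and at 22.0, 24.6, 25.1 and 25.8 CPM on zinc water, with a slight overlap. Its log2 fold change of -0.47 ± 0.21 (SE) had an adjusted p of 0.104 by edgeR, and of 0.0125 in a fit of the antibiotics libraries alone and 0.0227 with no filter on low counts. In germ-free mice Ces1d stood at 18.9, 16.9 and 29.7 CPM on Milli-Q and at 16.3, 19.2, 25.2 and 19.8 CPM on zinc water. These groups overlapped almost wholly, and the log2 fold change was -0.12 ± 0.24 (SE, adjusted p 0.784 by edgeR), with a 95% interval from -0.61 to 0.38.

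Other carboxylesterases are given beside Ces1d. Of 19 carboxylesterase genes, 9 others passed the filter, and averaged over antibiotics and germ-free mice 5 rose and 0 fell on zinc water, where 29.8% of all genes were called, with a median log2 fold change of 0.69 against -0.009 over all genes. Taken separately, 2 of the 9 rose after antibiotics and 1 in germ-free mice, near the 21.7 and 11.3% of all genes called there. Ces1f rose by 2.40 ± 0.57, Ces1g, an esterase that acts on lipids in liver and gut, by 1.90 ± 0.51 and Ces2c by 1.20 ± 0.37 (SE, adjusted p 0.00357, 0.00792 and 0.0163 by edgeR). Ces2e and Ces2g also rose, by 0.69 ± 0.25 and 0.71 ± 0.16. In SPF mice Ces1f and Ces1g stood at -1.19 ± 0.78 and -1.29 ± 0.70 log2 units (SE, adjusted p 0.997 each by edgeR). The genes on either side of Ces1d in the cluster on chromosome 8 did not pass the test, with Ces1c, the one with the highest mean CPM, at 0.12 ± 0.16 and Ces1e at -0.14 ± 0.13 (SE, adjusted p 0.596 and 0.451). Nearly all of Ces1d is its own sequence, as 99.8% of its stretches of 60 bases occur in no other gene.

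**Figure D3:**
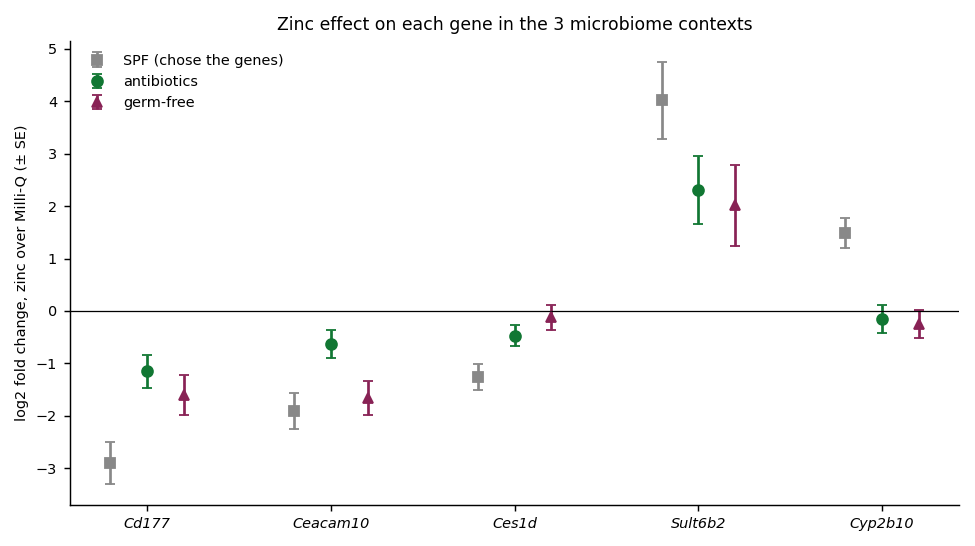
Log2 fold change (zinc over Milli-Q water) of each gene in SPF, antibiotics and germ-free mice, with bars for ± SE. The SPF values chose the genes. Cd177 and Ceacam10 lie below 0 and Sult6b2 above 0 in each context, while Cyp2b10 lies at -0.16 and -0.25 outside SPF mice.

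Sult6b2 rose on zinc water after antibiotics, from counts that were low in every group. No Milli-Q library had more than 6 counts, so it passed the filter on low counts through zinc libraries, those in SPF mice among them. In a fit of the antibiotics libraries alone Sult6b2 did not pass the filter and had no test. Under this filter its call needed libraries of the other contexts. It had 5, 2, 4 and 4 counts in the antibiotics Milli-Q libraries and 8, 5, 26 and 24 counts on zinc water. Zinc replicates 3 and 4 were high at 1.75 and 1.57 CPM, while replicate 2, at 0.257 CPM, lay just above the highest Milli-Q library at 0.250 CPM. The rise was 4.96-fold (log2 fold change 2.31 ± 0.65 SE, adjusted p 0.0164 by edgeR). Leaving out antibiotics Milli-Q replicate 2 or antibiotics zinc replicate 3 or 4 ended the call (adjusted p 0.0536, 0.0536 and 0.0582), and limma-voom did not make it (0.0752). In germ-free mice Sult6b2 had 2, 5 and 2 counts on Milli-Q and 18, 2, 14 and 13 counts on zinc water. There zinc replicate 2, at 0.218 CPM, was within the Milli-Q range of 0.214 to 0.740 CPM, and the log2 fold change of 2.02 ± 0.78 (SE) had an adjusted p of 0.0876 by edgeR. That adjusted p was 0.0489 without germ-free zinc replicate 2, 0.0456 by DESeq2 and 0.0383 with no filter on low counts. Averaged over both contexts the rise was 2.16 ± 0.51 (SE, adjusted p 0.00329 by edgeR). It was called without any single library and not by limma-voom (adjusted p 0.0562).

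Of 23 genes of sulfate transfer, 7 others passed the filter, and averaged over antibiotics and germ-free mice 2 rose and 0 fell, a share near the 29.8% of all genes called, with a median log2 fold change of 0.48. Sult1d1, a cytosolic sulfotransferase of the gut and kidney, rose by 1.09 ± 0.20, and Papss1, which makes the sulfate donor, by 0.58 ± 0.11 (SE, adjusted p 0.000806 and 0.0011 by edgeR). Each passed in both contexts taken separately. The closest relative of Sult6b2, Sult6b1, had 1 count over all libraries. The annotation places the lncRNA Gm46981 on the opposite strand of Sult6b2, and the strand setting of the counting is unknown here. The nearest tested genes, Cmas and C2cd5, stood at -0.07 ± 0.10 and 0.14 ± 0.10 (SE, adjusted p 0.621 and 0.301).

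Enterocyte markers were higher where Sult6b2 was higher in the SPF libraries, which chose the gene. Their sum was 808 ± 126 CPM on Milli-Q and 1868 ± 502 CPM on zinc water in SPF mice (SD, n = 3 each), with no overlap. After antibiotics it was 662 ± 57.9 and 806 ± 130 CPM (SD, n = 4 each), and in germ-free mice 999 ± 337 (SD, n = 3) and 1383 ± 780 CPM (SD, n = 4), both with overlap. Across the 21 libraries, which share groups and depth and include the SPF libraries, Pearson's r of the sum with log2 CPM was 0.72 for Sult6b2, 0.55 for Cyp2b10, -0.47 for Cd177, -0.60 for Ceacam10 and -0.61 for Ces1d. In the germ-free zinc libraries, replicates 1 to 4, the sums were 888, 745, 1436 and 2464 CPM. Sult6b2 stood there at 3.48, 0.218, 1.65 and 1.38 CPM, where 3.48 CPM was 18 counts. In the antibiotics zinc libraries, replicates 1 to 4, the sums were 679, 773.5, 783.8 and 988.1 CPM. Sult6b2 stood there at 0.495, 0.257, 1.75 and 1.57 CPM, so replicates 3 and 4 were higher in both. In neither group was the order of libraries wholly the same for the sum and Sult6b2. The part of enterocyte RNA in these results was not tested.

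**Figure D4:**
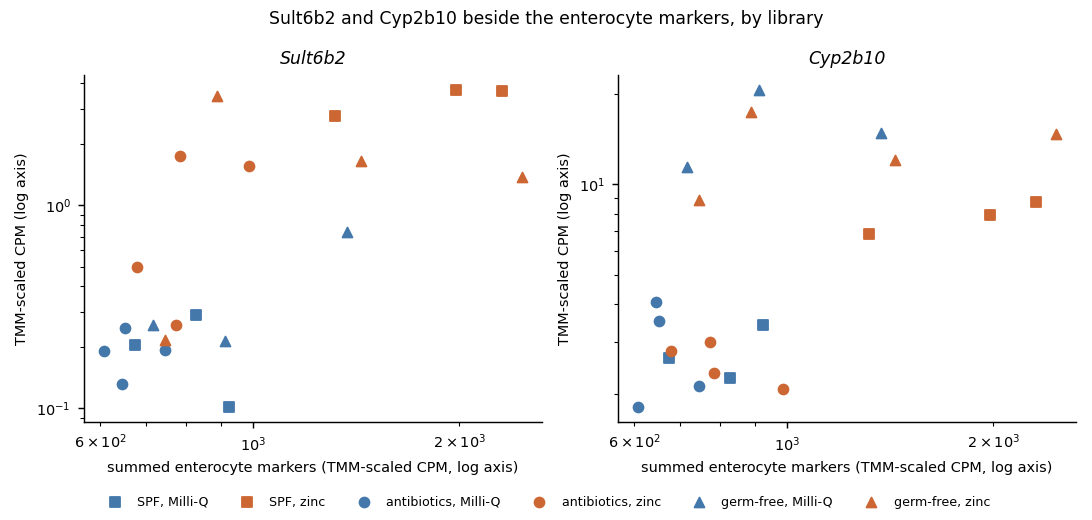
Level of Sult6b2 and Cyp2b10 against the sum of 16 enterocyte markers in each library (TMM-scaled CPM, both axes logarithmic), with colour for the water and shape for the context. The 3 SPF zinc libraries lie at 1320 to 2307 CPM of the markers and high in both genes beside SPF Milli-Q, and the germ-free libraries lie high in Cyp2b10 at low and high marker sums.

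Cyp2b10 showed no rise past the threshold on zinc water outside SPF mice, and it differed between germ-free and antibiotics mice. After antibiotics it stood at 3.50, 4.06, 1.82 and 2.14 CPM on Milli-Q and at 2.79, 2.98, 2.36 and 2.09 CPM on zinc water, and the waters overlapped. In germ-free mice it stood at 11.4, 14.8 and 20.6 CPM on Milli-Q and at 17.4, 8.85, 12.0 and 14.7 CPM on zinc water, again with overlap. The log2 fold changes on zinc water were -0.16 ± 0.27 after antibiotics and -0.25 ± 0.26 in germ-free mice (SE, adjusted p 0.707 and 0.553 by edgeR). Their 95% intervals ran from -0.70 to 0.39 and from -0.79 to 0.29. By limma-voom the germ-free value was -0.67, with an adjusted p of 0.0269.

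Germ-free libraries lay above antibiotics libraries for Cyp2b10 on both waters, with no overlap. The rise was 5.46-fold on Milli-Q (log2 difference 2.45 ± 0.27 SE, adjusted p 2.56e-06 by edgeR) and 5.11-fold on zinc water (2.35 ± 0.26, adjusted p 2.04e-05). It was called without any single library. Scaled by library totals alone, the differences were 1.40 and 1.59, both called, while the median of all genes moved to -1.05 and -0.74. In TMM-scaled CPM the sum of 8 goblet cell markers was also higher in germ-free mice on Milli-Q. It was 17270 ± 1173 CPM (SD, n = 3) against 10610 ± 297 CPM after antibiotics (SD, n = 4). As a share of counts the goblet sum was lower in germ-free mice, at 1.058 to 1.208% against 1.315 to 1.515%. The sum of 8 hepatocyte markers, mostly Apoh, ranged from 4.59 to 8.29 CPM against 2.10 to 3.69 CPM in the same groups. As shares of counts these overlapped, at 0.000288 to 0.000538% against 0.000284 to 0.000456%. On zinc water the goblet sum was 14830 ± 2627 CPM in germ-free mice and 11450 ± 2156 CPM after antibiotics (SD, n = 4 each), with overlap. The hepatocyte sum there ranged from 2.87 to 6.55 CPM and from 1.01 to 2.48 CPM. Goblet shares of counts on zinc water were 0.971 to 1.117% in germ-free mice and 1.119 to 1.56% after antibiotics, and hepatocyte shares overlapped. The sum of 13 Paneth cell markers also lay higher in germ-free mice with no overlap. On Milli-Q it was 774800 to 776600 against 194700 to 312900 CPM, and on zinc water 549200 to 994500 against 239500 to 368600 CPM. These CPM are scaled by the TMM factors and are not parts of a library. As shares of counts the Paneth sums were 48.8 to 51.3% against 29.0 to 38.6% on Milli-Q. On zinc water these shares were 45.8 to 52.0% against 31.8 to 40.0%. The part of the goblet, hepatocyte and Paneth sums in the Cyp2b10 difference was not tested. The SPF libraries, which chose the gene, stood with the antibiotics libraries on Milli-Q (2.27 to 3.42 CPM) and between antibiotics and germ-free libraries on zinc water, where the highest SPF library at 8.72 CPM was just under the lowest germ-free library at 8.85 CPM.

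Several genes known as targets of CAR and of its relative PXR (Nr1i2) rose on zinc water after antibiotics and in germ-free mice. Of 41 genes of this response, both receptors included, 31 others passed the filter, and averaged over antibiotics and germ-free mice 16 rose and 1 fell, where 29.8% of all genes were called, with a median log2 fold change of 0.88 against -0.009 over all genes. Taken separately, 11 rose and 1 fell after antibiotics, and 8 rose and 0 fell in germ-free mice, where 21.7 and 11.3% of all genes were called. In SPF mice 0 of the 31 were called, beside 0.138% of all genes. Ces2a, Ces2c and Sult1d1 are counted here and also among the carboxylesterases or the genes of sulfate transfer, so the lists are not separate. The glutathione transferases Gsta2 and Gsta1 rose by 4.68 ± 0.96 and 3.51 ± 0.71 and the retinal dehydrogenase Aldh1a1 by 3.01 ± 0.46 (SE, adjusted p 0.00186, 0.00131 and 0.000275 by edgeR). After antibiotics Gsta2 had 1 to 2 counts on Milli-Q and 8 to 13 on zinc water, and Gsta1 had 3 to 5 and 12 to 58. In germ-free mice Gsta2 had 0 counts on Milli-Q and 0 to 16 on zinc water, and Gsta1 had 0 to 8 and 0 to 96. Both genes thus overlapped there, and the size of the Gsta2 change starts from counts near 0. Ugt2b34, a glucuronosyltransferase and the list's gene with the highest mean CPM, rose by 0.96 ± 0.15 (SE, adjusted p 0.000275). The gene that fell was Nr1i2 itself, by 0.39 log2 units (-0.39 ± 0.12 SE, adjusted p 0.0170), and Nr1i3 stood at -0.29 ± 0.45 (adjusted p 0.654). Between germ-free and antibiotics mice on Milli-Q water, 3 of the 31 were higher and 1 lower in germ-free mice, a share below the 22.2% of all genes called there. These were Cyp2c29, Cyp2c68 and Gstm1 at 4.32 ± 1.43, 1.22 ± 0.25 and 1.00 ± 0.30 (SE) and Abcc3 at -0.58 ± 0.14. The close relatives Cyp2b9, Cyp2b13, Cyp2b19 and Cyp2b23 had 0 counts in every library, and 94.7% of the Cyp2b10 stretches of 60 bases occur in no other gene.

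**Figure D5:**
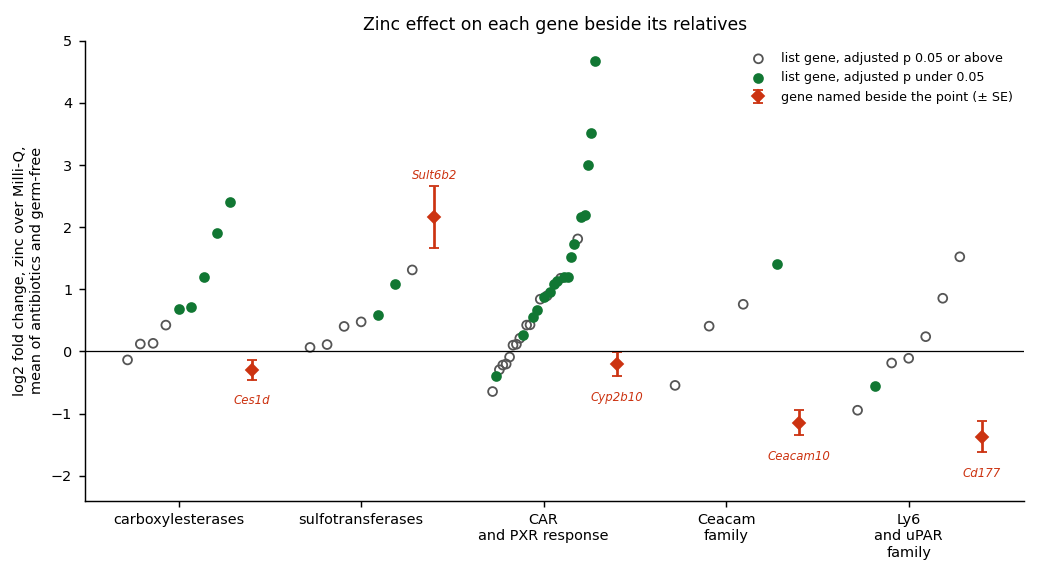
Log2 fold change (zinc over Milli-Q water, mean of antibiotics and germ-free mice) of each gene, as a diamond with ± SE, beside the other tested genes of its list, as circles that are filled where the adjusted p was under 0.05. Ces1d and Cyp2b10 lie at -0.29 and -0.20, neither of them called (adjusted p 0.165 and 0.432 by edgeR). Their lists hold 5 and 16 genes that rose. Ceacam10 and Cd177 lie at -1.14 and -1.38. Ces2a, Ces2c and Sult1d1 appear in the CAR and PXR list and again in the list of their own family.

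Set against all genes, the number of these genes called was 2 of 5 after antibiotics (Cd177 and Sult6b2), where 21.7% of all genes tested were called and 27.5% had groups that did not overlap. It was 2 of 5 in germ-free mice (Cd177 and Ceacam10), where 11.3% were called and 14.5% did not overlap. In the average of both contexts it was 3 of 5 (Cd177, Ceacam10 and Sult6b2) beside 29.8% of all genes. Of these, Sult6b2 passed the filter on low counts through zinc libraries, those in SPF mice among them. The difference of the zinc effect between germ-free and antibiotics mice was called for 0 of the 5 genes and for 0.207% of all genes. It was largest for Ceacam10, at -1.04 ± 0.42 (SE, unadjusted p 0.0197, adjusted p 0.211 by edgeR, which was 0.00861 with no filter on low counts). For Cd177, Ces1d, Sult6b2 and Cyp2b10 the difference was -0.45 ± 0.50, 0.35 ± 0.32, -0.29 ± 0.98 and -0.10 ± 0.37. On Milli-Q water germ-free and antibiotics mice differed in 1 of the 5 genes, Cyp2b10, and in 22.2% of all genes. On zinc water they differed in Cyp2b10 and Ceacam10, and in 13.2% of all genes, with Ceacam10 lower in germ-free mice by 2.77-fold (-1.47 ± 0.30 SE, adjusted p 0.00217). Ces1d on Milli-Q water missed the threshold, at -0.62 ± 0.23 (SE, adjusted p 0.0580).

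Over the 21 libraries, the 3 genes of all those tested whose log2 CPM was most like each gene were described by Pearson's r. For Cd177 they were Noxa1, an activator of NADPH oxidase (0.86), the zinc importer Slc39a4 (0.84) and Ceacam10 (0.83). For Ceacam10 they were Cd177 (0.83), the antisense RNA Tnfsf13os (0.79) and Slc39a4 (0.79). For Ces1d they were Dnase1l1 (0.79), the cytokine gene Tnf (0.76) and the flavin monooxygenase gene Fmo1 (0.74). For Sult6b2 they were the intestinal phosphatase Akp3 (0.81), the glutathione transferase Gsta13 (0.81) and Mttp, which loads lipid onto lipoproteins (0.79). For Cyp2b10 they were the brush border peptidase Anpep (0.93), the peptide hormone gene Guca2b (0.92) and the adiponectin receptor gene Adipor2 (0.91). Scaled by library totals alone, the values for Anpep, Guca2b and Adipor2 were 0.58, 0.83 and -0.38. The names depended on the measure, since by Spearman's rank correlation 0 of the 3 genes stayed for Sult6b2 and for Cyp2b10, and with library totals 1 of the 3 stayed for each gene but Ces1d. Among the 5 genes, Sult6b2 ran opposite to Cd177 (r = -0.79), Ceacam10 (-0.74) and Ces1d (-0.73). The SPF libraries, which chose the genes, are among the 21.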

How the data were processed

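Paneth cells were sorted by FACS and stranded mRNA libraries were sequenced. The authors deposited 1 table of raw counts per Ensembl gene for all 21 libraries, not normalised. The submitters' processing notes name FastQC 0.12.0, STAR 2.7.0a and DESeq2 with the mm39 build. The sources used here do not give which tool counted the reads, with what strand setting or what treatment of reads shared between genes. Positions and symbols came from GENCODE M39 on GRCm39, which held 54749 of the 55414 identifiers, and sequences from that genome.

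Counts were fitted with edgeR 4.0.16 (limma 3.58.1, R 4.3.3) in 1 model of 6 groups, after filterByExpr had kept 13070 genes, with TMM scaling. The Benjamini-Hochberg method was applied to the quasi-likelihood p-values of all genes tested, with a threshold of 0.05. Adjusted p-values of the alternatives come from the same adjustment in edgeR, limma-voom or DESeq2 1.42.0. Log2 CPM used a prior count of 2. The 95% intervals use the fit's degrees of freedom. Replicates are separate biological replicates per the series' design text. The genes and lists were chosen with earlier results of these data known. Named beside the 5 genes were the 3 genes most like each, up to 3 called genes of each list with the largest averaged zinc effect and the one with the highest mean CPM, the nearest tested neighbours, Nr1i3, Nr1i2, Mt1, Mt2 and Xist. Genes of a list or window named to resolve a count of 5 or fewer were taken after their values were seen. Plots used matplotlib 3.10.9 under Python 3.11.15.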

Additional observations from a re-analysis of the deposited data

How the results depend on the processing

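The number of the 5 genes called moved under some alternatives. After antibiotics it was 4 with no filter on low counts, 1 with a filter of 10 counts in 10 libraries (which removes Sult6b2 from the test) and 1 to 3 without a single library. A fit of the antibiotics libraries alone gave 3 (Cd177, Ceacam10 and Ces1d), with Sult6b2 not tested. Limma-voom gave 2, but these were Cd177 and Ceacam10. In germ-free mice it was 1 in a fit of the groups compared alone and 0 to 3 without a single library, where germ-free Milli-Q replicate 2 gave 0. The average of both contexts stayed at 3 without any single library. The difference of zinc effects gave 1 with no filter and 0 without any single library. Between germ-free and antibiotics mice on Milli-Q water the count was 2 with DESeq2-type size factors, with TMM factors without the Defa genes, with DESeq2 and with the stricter filter, 3 with no filter or the groups alone, 4 with library totals and 1 to 2 without a single library. On zinc water it was 4 with library totals and 2 to 3 without a single library. Some values that did not pass the threshold changed sign. Cyp2b10 after antibiotics was 0.0614 by limma-voom and between -0.321 and 0.0492 without a single library, and in germ-free mice it ran from -0.43 to 0.0078 without a single library. Ces1d in germ-free mice was 0.0368 with library totals and -0.27 to 0.18 without a single library. The difference of zinc effects was 0.19 for Cyp2b10 with library totals, -0.29 to 0.16 without a single library, and -0.85 to 0.40 for Sult6b2. Sult6b2 between germ-free and antibiotics mice was -0.0529 on Milli-Q and -0.12 on zinc water with library totals. The cause was not tested. Library totals moved the median over all genes (log2 fold change) to -0.23 in SPF, -0.15 in antibiotics and 0.12 in germ-free mice, to 0.31 for the difference of zinc effects, and to -1.05 and -0.74 between germ-free and antibiotics mice on Milli-Q and zinc water. The share of called genes that were higher moved with them, from 44.4 to 26.3%, 47.1 to 10.5%, 51.8 to 93.9%, 33.3 to 100%, 56.4 to 0.639% and 53.7 to 1.36%, and for the difference of zinc effects to 51.4% with DESeq2-type size factors. Counts over all genes moved by more than 1.5 times as follows. In SPF mice 18 became 40 by DESeq2, 60 by limma-voom, 269 with no filter, 11 with the stricter filter and 5 to 37 without a single library. With library totals 2837 after antibiotics became 1447, 1483 in germ-free mice 735, 3889 in the average 2262, 27 for the difference 3, and 2905 and 1719 between contexts 10334 and 8649. By limma-voom 1483 became 3157, and with the groups alone 3. The 27 became 323 by DESeq2 and with no filter, 767 by limma-voom and 2 with the groups alone, and the 1719 became 866 with the groups alone. Without a single library the ranges were 1317 to 3477 after antibiotics, 5 to 3436 in germ-free mice, 0 to 362 for the difference and 1566 to 3313 between contexts on Milli-Q water.

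Whether replicate numbers pair the samples could not be decided. Deviations of same-numbered samples correlated between -0.386 and 0.229, and those of other-numbered samples between -0.279 and 0.385. Some germ-free Milli-Q replicates carry another number in the deposited counts than in the labels, and pairing by those numbers was not tested. With the replicate number as a block, no call of the 5 genes changed (for Cd177 the log2 fold change was -1.16 after antibiotics and -1.80 in germ-free mice), and the count of 27 over all genes became 15. Depth limits Sult6b2 most, with 2 to 8 counts in 13 libraries.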
